A study of Mus musculus with 36 samples.

Results

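The 12 libraries described here hold the poly(A) RNA of mouse ESCs that lost JARID2 from 2 different starting points, and they are 12 of the 36 RNA-seq libraries of the series. They were chosen by genotype and stage in the labels, with 3 libraries each of J2WT, J2KO, TKO and QKO ESCs. J2WT is a wild-type line and J2KO a JARID2 knockout line, both from 1 laboratory. TKO came from another laboratory, and QKO was made elsewhere again. TKO lacks PHF1, MTF2 and PHF19, which are the Polycomb-like proteins, and QKO lacks these and JARID2, so loss of PHF1, MTF2 and PHF19 is shared by both groups of the second pair. All lines are given as strain C57BL/6 and were grown without feeders on gelatin, in serum with LIF and the 2i inhibitors of GSK3 and MEK. The question of the comparison was whether losing JARID2 acts differently when the Polycomb-like proteins are gone. It was put to each gene as a difference of effects, QKO minus TKO less J2KO minus J2WT, on the log2 scale. A difference above 0 therefore means that the effect in QKO over TKO lay above the effect in J2KO over J2WT, whichever sign the single effects had. As far as the labels go each genotype is 1 line, so loss of JARID2, the clone and the history of the line cannot be told apart in either effect or in their difference. PclWT, a wild-type group from the laboratory that supplied TKO, and the EpiLC libraries of the 4 genotypes are used beside some results. Whether the 3 libraries of a group are separate cultures is not in the labels, so the p-values reflect library spread that may be technical.

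PRC2 methylates lysine 27 of histone H3 and exists in ESCs as PRC2.1 and PRC2.2. PRC2.1 carries a Polycomb-like protein, PHF1, MTF2 or PHF19, which binds CpG-rich DNA, and PRC2.2 carries JARID2 and AEBP2, where JARID2 binds ubiquitinated histone H2A. Canonical PRC1, through chromobox proteins such as CBX7, binds methylated H3K27, and many of the genes under this control in ESCs encode developmental transcription factors. J2KO ESCs thus keep the Polycomb-like proteins, TKO ESCs keep JARID2, and QKO ESCs have neither.

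Counts in genes were 15924615 to 18026492 in the J2WT and J2KO libraries and 8097673 to 10182668 in the TKO and QKO libraries, so the second pair was measured at a lower depth. Levels are CPM, counts brought to a common library total after TMM scaling, and SE is the standard error of a log2 value. The 8 ESC markers, among them Pou5f1, Nanog and Esrrb, summed to 5479 to 6551 CPM over all 12 libraries. The 5 markers of primitive endoderm summed to at most 18.9 CPM, those of trophoblast to at most 11.8 CPM and those of feeders to at most 7.9 CPM, with Col3a1 and Postn at 0 counts in TKO and QKO. In these bulk libraries fewer cells of a type and less RNA per cell cannot be told apart. Mtf2, which encodes the main Polycomb-like protein of ESCs, was at 576 ± 7.46 CPM in J2WT and 564 ± 2.9 in J2KO but at 43.4 ± 2.09 in TKO and 37.6 ± 1.74 in QKO (mean ± SD, n = 3 each here and below). Phf1 was at 17.3 ± 1.2, 12.9 ± 1.03, 0.587 ± 0.0763 and 0.585 ± 0.153 CPM in the same order, and Phf19 at 2.78 ± 0.697, 1.93 ± 0.449, 1.23 ± 0.336 and 0.477 ± 0.321. Jarid2 transcripts were still counted, at 459, 456 and 438 CPM in J2WT, 405, 408 and 407 in J2KO, 440, 457 and 447 in TKO and 400, 396 and 381 in QKO. Counts over the whole gene do not show which exons are missing, so the JARID2 labels of J2KO and QKO were not checked by these values.

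Most genes that changed with loss of JARID2 in 1 background were not called in the other. Of 13017 genes tested, 914 had a called difference above 0 and 1275 a called difference below 0, which is 7.02% and 9.79% of all genes (edgeR adjusted p under 0.05 and a log2 difference past 1 in size). In J2KO over J2WT, 885 genes were higher and 773 lower, or 6.8% and 5.94%, and in QKO over TKO 213 were higher and 470 lower, or 1.64% and 3.61%. The balance of the calls leaned to higher genes in J2KO over J2WT and to lower genes in QKO over TKO. Without the genes of chromosomes 11, X and Y, an alternative chosen after seeing the data, 712 genes were higher and 725 lower in J2KO. In QKO 174 were then higher and 422 lower. With each chromosome's median effect subtracted, also chosen after seeing the data, 825 genes were higher and 752 lower in J2KO. The lean to higher genes in J2KO was thus lost under the first alternative and kept under the second. The pairs share no library. In all, 299 genes were called in both, 18% of the J2KO calls and 43.8% of the QKO calls. Over all genes tested, 5.25% were called in QKO and 12.7% in J2KO, so both shares lay above those of all genes. Of these, 145 moved the same way and 154 opposite ways. Across all genes tested the effects had Pearson's r = -0.04 and Spearman's rho = -0.08, a description over genes, which are not independent replicates and within a pair share the same 6 libraries. The median QKO effect was -0.16 over the genes higher in J2KO and -0.09 over those lower in J2KO, against 0.00 over all genes.

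The 2189 genes with a called difference fell into 6 patterns. In 686, the J2KO effect was called and the QKO effect had an adjusted p of 0.05 or more, with 377 higher and 309 lower in J2KO. The reverse held for 110 genes, of which 42 were higher and 68 lower in QKO. All 154 genes called in opposite directions had a called difference, which the fold limit on each effect all but fixes in advance. Of these genes, 112 were higher in J2KO and lower in QKO. In 35 genes both effects were called in 1 direction and still differed. The remaining genes had no called single effect (669 genes) or 1 called effect beside another that passed the adjusted p only (535 genes). A further 95 genes were called the same way in both backgrounds with a difference that did not pass.

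**Figure D1:**
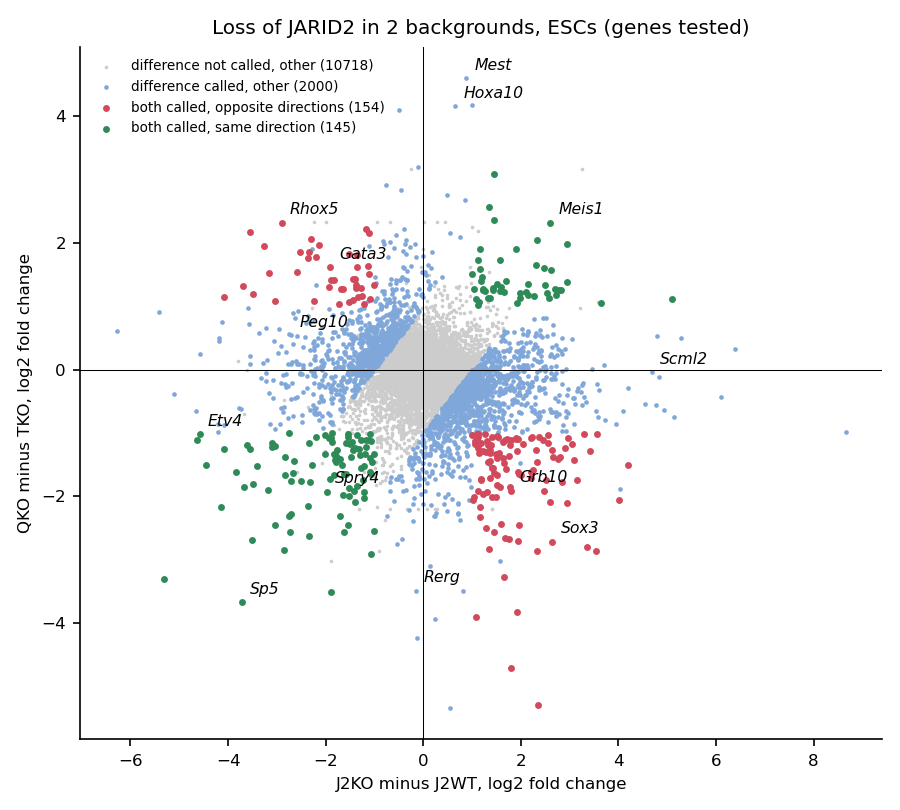
Each point is 1 of the 13017 genes tested in ESCs, with the log2 fold change of J2KO over J2WT on the horizontal axis and of QKO over TKO on the vertical axis. The 154 genes called in opposite directions (red) lie in the upper left and lower right quadrants and the 145 called in the same direction (green) in the other two, with blue for the other genes with a called difference.

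The promoters of 4 genes are shown because each stands for a pattern described below: Sp5 fell in both backgrounds, Hoxa10 rose in QKO alone, Khdc3 fell in J2KO and rose in QKO, and Grb10 rose in J2KO and fell in QKO. The sequences are from RefSeq on GRCm38.p6 and run from 250 bases before to 50 bases after a gene's start, 5′ to 3′ on the gene's strand, with each CG dinucleotide in capitals. They lie at chr2:70474673-70474972 on the + strand for Sp5, chr6:52240805-52241104 on the - strand for Hoxa10, chr9:73102148-73102447 on the + strand for Khdc3 and chr11:12037371-12037670 on the - strand for Grb10. For Hoxa10 and Grb10, which have 2 listed promoters each, the one nearest the annotated 5′ end is shown.
Sp5: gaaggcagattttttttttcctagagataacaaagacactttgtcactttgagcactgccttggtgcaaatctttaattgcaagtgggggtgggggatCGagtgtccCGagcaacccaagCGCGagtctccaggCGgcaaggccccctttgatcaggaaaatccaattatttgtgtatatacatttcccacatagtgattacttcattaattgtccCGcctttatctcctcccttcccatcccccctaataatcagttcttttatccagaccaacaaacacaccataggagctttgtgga
Hoxa10: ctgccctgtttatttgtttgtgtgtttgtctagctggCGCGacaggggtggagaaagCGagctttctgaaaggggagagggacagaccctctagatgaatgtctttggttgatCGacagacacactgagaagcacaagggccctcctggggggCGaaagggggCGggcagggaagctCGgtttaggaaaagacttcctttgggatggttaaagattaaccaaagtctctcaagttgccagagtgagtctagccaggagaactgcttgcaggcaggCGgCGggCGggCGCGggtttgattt
Khdc3: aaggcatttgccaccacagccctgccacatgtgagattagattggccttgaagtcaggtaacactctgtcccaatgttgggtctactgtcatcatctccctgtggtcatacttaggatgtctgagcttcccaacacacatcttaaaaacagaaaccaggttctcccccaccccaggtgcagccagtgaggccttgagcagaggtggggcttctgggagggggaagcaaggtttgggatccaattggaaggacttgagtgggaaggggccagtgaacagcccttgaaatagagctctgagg
Grb10: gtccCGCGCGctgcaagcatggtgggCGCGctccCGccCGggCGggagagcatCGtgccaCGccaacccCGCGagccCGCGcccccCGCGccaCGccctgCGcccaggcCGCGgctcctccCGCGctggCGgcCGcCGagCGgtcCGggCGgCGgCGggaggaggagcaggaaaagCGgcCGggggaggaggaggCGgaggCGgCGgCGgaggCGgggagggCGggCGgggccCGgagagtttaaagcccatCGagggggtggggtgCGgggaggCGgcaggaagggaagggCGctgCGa
The CG count, which reads the same on both strands, was 6 for Sp5, 12 for Hoxa10, 0 for Khdc3 and 45 for Grb10. Fewer CG stood in 43.6%, 60.4%, 0% and 98.1% of all promoters in the table, in the order named. At least 10 CG stood in 43.5% of all 32851 promoters and, taking each gene's richest promoter, in 87.7% of the 9814 tested genes that have one. The share was 72.6% of 671 genes with a difference called above 0 and 80.5% of 914 with a difference called below 0. It was 83.8% for genes higher in J2KO alone and 64.8% for those lower in J2KO alone. Genes without an entry in the table did not enter these shares.

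A small set of genes was called in 1 direction in both backgrounds with a difference that did not pass. Sp5 (ENSMUSG00000075304, GRCm38 chromosome 2, bases 70474923 to 70477729), a transcription factor gene induced by Wnt signalling, was at 66.1, 65.5 and 64.2 CPM in J2WT, 4.93, 4.53 and 5.52 in J2KO, 10.4, 7.7 and 7.23 in TKO and 0.923, 0.883 and 0.215 in QKO. Every library that lacked JARID2 lay below every library of its own control. The log2 fold change was -3.72 (edgeR adjusted p = 3.11e-22, SE 0.09) in J2KO and -3.67 (edgeR adjusted p = 1.96e-11, SE 0.27) in QKO, and the difference was 0.05 with a 95% interval of -1.14 to 1.24. TKO already lay below J2WT, so fitted folds of close size came from unequal levels. Plaur, the receptor of urokinase, fell from 16.2 ± 0.499 to 2.24 ± 0.104 CPM and from 5.89 ± 0.462 to 0.804 ± 0.327 CPM, with log2 fold changes of -2.86 and -2.85 and a difference of 0.02 (interval -1.43 to 1.47). Both intervals reach past the log2 limit of 1, so neither shows that the effects were equal. Vsx1, a homeobox gene of the retina, fell by 5.30 and 3.31 on the log2 scale in the 2 pairs, and its difference of 1.99 had an interval of -0.23 to 4.21, too wide to show that the effects were alike. Without QKO library 1 that difference was 2.56 (edgeR adjusted p = 0.0421).

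Among genes that rose in both, Meis1 (ENSMUSG00000020160, GRCm38 chromosome 11, bases 18879817 to 19018985), a homeobox partner of Hox proteins, was at 0.428, 0.704 and 0.685 CPM in J2WT, 3.29, 3.86 and 4.07 in J2KO, 0.8, 1.18 and 1.03 in TKO and 4.96, 4.54 and 5.49 in QKO. Both knockout groups lay above their controls without overlap, with log2 fold changes of 2.59 (edgeR adjusted p = 1.02e-10, SE 0.22) and 2.32 (edgeR adjusted p = 1.49e-08, SE 0.24), and the difference was -0.28 (interval -1.04 to 0.49). Kcnk2, a potassium channel gene, rose by 2.95 and 1.98 on the log2 scale, and Prox1, a homeobox gene of lymphatic and neural cells, by 2.33 and 2.05. Their differences were -0.97 (interval -2.25 to 0.31) and -0.29 (interval -1.21 to 0.64), and both intervals reach past -1. Spry4, an inhibitor of growth factor signalling, was at 57.1, 53.4 and 53 CPM in J2WT, 14.3, 14.2 and 13.2 in J2KO, 48.9, 53.1 and 50.9 in TKO and 13.5, 13.9 and 12.9 in QKO, so that J2WT and TKO lay between 48.9 and 57.1 CPM and J2KO and QKO between 12.9 and 14.3 CPM. Its log2 fold changes were -1.98 and -1.92 and its difference 0.06 (interval -0.16 to 0.28).

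Rhox5 and Grb10 stand for the genes called in opposite directions. Rhox5 (ENSMUSG00000095180, GRCm38 chromosome X, bases 37804842 to 37808876), an X-linked homeobox gene of the germ line and placenta, was at 56.1, 63.4 and 68.1 CPM in J2WT, 8.4, 8.44 and 8.47 in J2KO, 8.1, 6.95 and 6.71 in TKO and 34.1, 39.1 and 36 in QKO. It was lower in every J2KO library and higher in every QKO library than in the controls, and J2KO and TKO libraries lay between 6.71 and 8.47 CPM. Its log2 fold changes were -2.90 and 2.32, and the difference was 5.22 (edgeR adjusted p = 4.28e-21, SE 0.13). Tmprss5, a membrane serine protease gene, fell from 13.4 ± 0.503 to 1.15 ± 0.275 CPM and rose from 0.451 ± 0.172 to 2.01 ± 0.719 CPM, and Ly6a, which encodes the surface protein Sca-1, fell from 78.5 ± 1.82 to 4.66 ± 0.417 CPM and rose from 0.41 ± 0.17 to 0.937 ± 0.191 CPM. Khdc3, a gene of the oocyte's subcortical complex, fell from 29.1 ± 1.19 to 3.02 ± 0.42 CPM and rose from 5.96 ± 0.568 to 23 ± 2.12 CPM. Their differences were 5.71, 5.23 and 5.23. In CPM the rise of Ly6a in QKO was small beside its fall in J2KO.

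The other way round, Grb10 (ENSMUSG00000020176, GRCm38 chromosome 11, bases 11930508 to 12038683), an imprinted adaptor gene that restrains growth factor receptors, was at 53.2, 50.5 and 50.1 CPM in J2WT, 183, 181 and 174 in J2KO, 13.1, 14.4 and 12.2 in TKO and 4.04, 3.03 and 3.44 in QKO. It was higher in every J2KO library and lower in every QKO library than in the controls, with log2 fold changes of 1.79 and -1.91 and a difference of -3.70 (edgeR adjusted p = 7.63e-18, SE 0.13). Ccnd2, the cyclin D2 gene, rose from 0.0838 ± 0.0382 to 0.472 ± 0.0783 CPM and fell from 21.6 ± 1.87 to 0.542 ± 0.135 CPM, a difference of -7.65 that rests on 4 counts in all 3 J2WT libraries. Gap43, a gene of the neuronal growth cone, had 3 counts in J2WT and 41 in J2KO, a ratio of 13.5 (95% interval 4.31 to 68.2, exact, counting error only), and fell from 9.37 ± 0.354 to 1.25 ± 0.542 CPM in QKO. Pdha2, a testis form of a pyruvate dehydrogenase subunit, rose from 1.19 ± 0.216 to 4.2 ± 0.868 CPM, while TKO held 7 counts and QKO none, at least 2.08-fold lower with 3 counts taken as the floor of the 3 QKO libraries together. Sox3 (ENSMUSG00000045179, GRCm38 chromosome X, bases 60891366 to 60893430), an X-linked gene of neural progenitors, was at 0.735, 0.576 and 0.56 CPM in J2WT, 3.76, 3.61 and 4.66 in J2KO, 8.8, 10.3 and 7.74 in TKO and 1.15, 1.51 and 1.4 in QKO, with a difference of -5.36 (edgeR adjusted p = 6.86e-14, SE 0.31). Its TKO libraries lay above, and its J2WT libraries below, all J2KO and QKO libraries.

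Genes called in J2KO alone made up the largest pattern. Etv4 and Steap3, given below with genes that fell in J2KO, also changed in QKO, Etv4 downward and Steap3 upward. Scml2 (ENSMUSG00000000037, GRCm38 chromosome X, bases 161117193 to 161258213), an X-linked gene for a protein of PRC1, was at 3.67, 3.58 and 4.17 CPM in J2WT, 97.1, 102 and 97.1 in J2KO, 2.2, 2.67 and 2.07 in TKO and 2.42, 2.52 and 1.83 in QKO. J2KO stood above all other groups, TKO and QKO overlapped, and the difference was -4.72 (edgeR adjusted p = 4.43e-14, SE 0.27). Armcx3, an X-linked gene of the armadillo family, had 1 count in J2WT and 103 in J2KO, a ratio of 102 (exact 95% interval 17.9 to 4060), and was at 2.45 ± 0.141 CPM in TKO and 1.81 ± 0.232 in QKO. H2-Q7, a class I gene of the major histocompatibility complex, had 1 count in J2WT and 58 in J2KO, a ratio of 57.3 (exact interval 9.89 to 2303), and reads of this family may be split among near-identical copies. Igsf10, an immunoglobulin superfamily gene, rose from 0.082 ± 0.0934 to 7.85 ± 0.446 CPM and went from 4.96 ± 0.984 to 6.17 ± 1.47 CPM. Except for Scml2, the TKO level of these genes lay on the J2KO side of J2WT. The PclWT libraries, wild type from the laboratory that supplied TKO, were at 13.2, 0.724, 5.17 and 3.47 CPM in the order named.

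Downward, Slc28a3, a nucleoside transporter gene, fell from 10.3 ± 1.33 to 0.119 ± 0.117 CPM and went from 1.21 ± 0.284 to 1.86 ± 0.613 CPM, a difference of 6.90, the largest above 0 among the genes named. Etv4 (ENSMUSG00000017724, GRCm38 chromosome 11, bases 101769742 to 101785371), an ETS transcription factor gene downstream of FGF signalling, was at 131, 128 and 131 CPM in J2WT, 5.76, 5.2 and 5.39 in J2KO, 67.6, 66.9 and 65.4 in TKO and 33.6, 33.5 and 31.5 in QKO. It fell in both backgrounds without overlap with the controls, with log2 fold changes of -4.59 in J2KO and -1.02 in QKO, and the difference was 3.57 (edgeR adjusted p = 2.54e-21, SE 0.09). Slc44a5, a choline transporter-like gene, fell from 7.94 ± 0.39 to 0.3 ± 0.231 CPM and went from 0.309 ± 0.0973 to 0.203 ± 0.191 CPM, a difference of 4.00 that was 3.25 (edgeR adjusted p = 0.0793) without QKO library 2. Anxa3, an annexin gene, fell from 21.4 ± 1.65 to 0.496 ± 0.221 CPM, Rcsd1, a regulator of actin capping, from 14.9 ± 1.17 to 0.626 ± 0.254 CPM, and Steap3, an iron reductase gene, from 50.4 ± 1.2 to 3.93 ± 0.12 CPM, while it rose from 31.7 ± 2.42 to 79.3 ± 1.29 CPM in QKO. Cd3d and Cd3g, neighbouring genes for chains of the T cell receptor complex, fell together from 27.5 ± 2.97 to 1.57 ± 0.284 CPM and from 4.57 ± 0.789 to 0.126 ± 0.0692 CPM, and lay at 1.04 ± 0.231 and 1.51 ± 0.586 CPM in TKO, below J2WT. The differences were 6.33 for Anxa3, 4.83 for Rcsd1, 5.02 for Steap3, 4.86 for Cd3d and 4.73 for Cd3g.

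The other genes with the lowest differences were low in J2WT. Ikzf1, the Ikaros transcription factor gene of lymphocytes, had 0 counts in J2WT and 197 in J2KO, at least 64.9-fold higher if 3 counts are taken as the floor of the 3 J2WT libraries together, and 38 counts in TKO and 17 in QKO. Calca, the calcitonin gene, rose from 0.188 ± 0.125 to 2.03 ± 0.404 CPM and fell from 9.15 ± 0.785 to 1.34 ± 0.619 CPM. Usp26, an X-linked deubiquitinase gene of the testis, rose from 0.166 ± 0.129 to 2.86 ± 0.182 CPM and fell from 3.72 ± 0.112 to 0.913 ± 0.478 CPM. Evc, a gene of the primary cilium, rose from 0.125 ± 0.0608 to 4.81 ± 0.324 CPM, and Crmp1, a gene of neuronal growth cones that overlaps it, from 1.54 ± 0.172 to 5.89 ± 0.418 CPM, while in QKO Evc went from 25.5 ± 1.27 to 15.1 ± 2.45 CPM and Crmp1 fell from 12.2 ± 0.28 to 0.854 ± 0.158 CPM. The counting used no strand, so reads of these overlapping genes cannot be told apart, nor those of Khdc3, Igsf10, Mest, Kifc3, Gata3, Bmp4, Hoxc9 and Hoxc10 from their annotated coding neighbours. In PclWT, Ikzf1, Calca, Usp26, Evc and Crmp1 were at 1.75, 7.97, 6.25, 28.7 and 16.3 CPM, above J2WT for each, as were the TKO means.

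Genes called in QKO alone were fewer. Otx2 is given with them, although it also rose in J2KO, just short of the fold limit. Hoxa10 (ENSMUSG00000000938, GRCm38 chromosome 6, bases 52231197 to 52240854), a posterior Hox gene, was at 0.49, 0.768 and 0.996 CPM in J2WT, 1.47, 1.1 and 0.985 in J2KO, 0.1, 0.642 and 0.723 in TKO and 8.77, 8.7 and 8.82 in QKO. QKO stood above every library of the other groups, with log2 fold changes of 4.16 (edgeR adjusted p = 4.56e-12, SE 0.28) in QKO and 0.65 (edgeR adjusted p = 0.069, SE 0.32) in J2KO and a difference of 3.51 (edgeR adjusted p = 8.46e-07, SE 0.49). Tfap2a, a transcription factor gene of neural crest and trophoblast, was at 17.9, 18.5 and 17.1 CPM in J2WT, 16, 16.2 and 18.1 in J2KO, 1.8, 1.82 and 3.2 in TKO and 21.6, 19.5 and 21.4 in QKO, so TKO stood alone, below the other 3 groups. Dppa3, a naive and germline gene that protects maternal methylation, rose from 1.21 ± 0.358 to 9.21 ± 1.86 CPM in QKO and went from 0.939 ± 0.146 to 0.551 ± 0.259 CPM in J2KO, and PclWT was at 9.49 CPM. Lower in QKO alone were Rerg, a gene for a Ras-like protein, from 38.2 ± 3.26 to 3.41 ± 0.798 CPM, Bdkrb2, a bradykinin receptor gene, from 4.99 ± 0.0951 to 0.771 ± 0.231 CPM, and Pianp, a gene for a neuronal membrane protein, from 15.2 ± 2.62 to 2.87 ± 0.525 CPM. In J2KO these went from 7.74 ± 0.463 to 7.01 ± 0.548 CPM, 0.586 ± 0.294 to 0.436 ± 0.125 CPM and 6.93 ± 0.571 to 6.03 ± 0.482 CPM. Otx2 (ENSMUSG00000021848, GRCm38 chromosome 14, bases 48657677 to 48673819), a transcription factor gene of formative pluripotency, was at 2.14, 1.73 and 2.05 CPM in J2WT, 4.05, 3.61 and 4.27 in J2KO, 1.3, 1.07 and 1.55 in TKO and 26.5, 21.7 and 23.4 in QKO, with log2 fold changes of 0.99 in J2KO and 4.18 in QKO and a difference of 3.19 (edgeR adjusted p = 1.82e-10, SE 0.28).

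**Figure D2:**
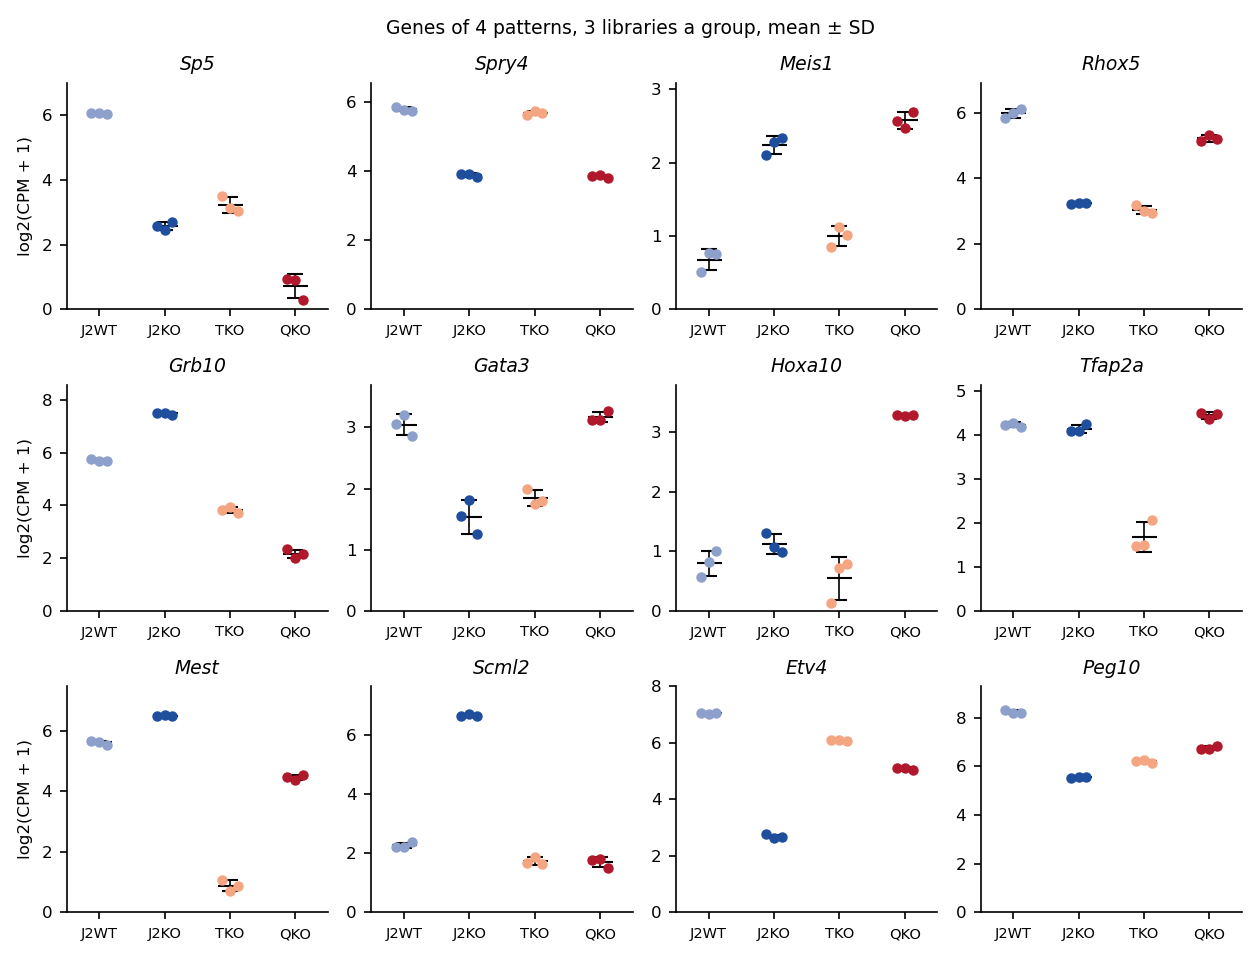
Levels of 12 genes as log2(CPM + 1) in the 3 libraries of each ESC group (points), with the mean ± SD of the plotted values (bars). Sp5, Spry4 and Meis1 shift the same way in both pairs, Rhox5, Gata3 and Grb10 shift opposite ways, Hoxa10, Tfap2a and Mest rise in QKO, and Scml2, Etv4 and Peg10 shift more in J2KO than in QKO.

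The genes of the Polycomb complexes themselves had few called differences. Of 6 genes of the PRC2 core, 6 of PRC2.1 accessory subunits and 2 of PRC2.2 accessory subunits, 0 had a called difference by edgeR (8 at an unadjusted p under 0.05 and 0 called by DESeq2), at medians of 0.06, -0.30 and -0.10. Ezh2, the catalytic subunit, went from 210 ± 1.7 to 188 ± 0.851 CPM and from 259 ± 7.24 to 236 ± 8.3 CPM, and Suz12, a scaffold subunit, from 610 ± 19.1 to 772 ± 9.57 CPM and from 517 ± 24.3 to 585 ± 16.3 CPM. Of the 5 chromobox genes of canonical PRC1, Cbx8 alone was called, rising from 2.07 ± 0.625 to 9.19 ± 0.664 CPM in QKO against 5.75 ± 0.582 to 8.51 ± 1.33 CPM in J2KO (difference 1.60, edgeR adjusted p = 3.67e-06, SE 0.25). Cbx7 went from 269 ± 2.24 to 345 ± 3.58 CPM and from 281 ± 22.9 to 235 ± 7.25 CPM, a difference of -0.60 that did not reach the fold limit. Of 9 other genes of canonical PRC1, Scml2 and Phc1 had a difference called below 0, Phc1 at 395 ± 15.3 to 543 ± 3.48 CPM and 566 ± 18.3 to 345 ± 13.9 CPM (difference -1.16, edgeR adjusted p = 3.08e-15, SE 0.06). Of 16 genes of variant PRC1, 1 was called, Pcgf5, at 1.09. Among all genes tested 16.8% were called in either direction.

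Among genes near PRC2 sites that were lost or kept on the way to EpiLCs, the share with a difference below 0 exceeded the 9.79% of all genes. The study grouped PRC2-bound sites by whether SUZ12, measured by ChIP-seq, was gained (recruited), lost (displaced) or kept (maintained) on the way from ESCs to EpiLCs, which did not use these RNA counts. Of 59 tested genes with a start within 2000 bp of a displaced site, 29 had a difference below 0 and 3 above 0, at a median of -1.05 against -0.01 over all genes. In J2KO 24 of them were higher and 3 lower, or 40.7% and 5.08%, and in QKO 1 was higher and 6 lower, or 1.69% and 10.2%. Over all genes tested 6.8% were higher and 5.94% lower in J2KO, and 1.64% higher and 3.61% lower in QKO. Of 971 tested genes near the maintained sites that were read, a part of that list, 304 had a difference below 0 and 91 above 0, 31.3% and 9.37% of them, at a median of -0.44. Here J2KO had 256 higher and 82 lower genes, or 26.4% and 8.44%, and QKO 42 higher and 96 lower, or 4.33% and 9.89%. The median effect on maintained genes was 0.30 in J2KO and -0.09 in QKO. Of the recruited genes, 62 above 0 and 41 below 0 of 368 were called, at a median of 0.12. These were 16.8% and 11.1%, against 7.02% and 9.79% of all genes. In J2KO 57 of the recruited genes were lower and 20 higher, or 15.5% and 5.43%. Genes near no such site had 6.52% called above 0 and 7.75% below 0. That group also holds genes of maintained sites not read here and any genes near sites of more than 1 class.

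Of the displaced genes, Stc2, a gene for a secreted glycoprotein, rose from 14.1 ± 0.803 to 68.1 ± 1.6 CPM in J2KO and fell from 13.6 ± 1.38 to 4.53 ± 0.548 CPM in QKO, with a difference of -3.85. Armcx3, described above, also lies at a displaced site. Pou3f1, a POU factor gene of the primed epiblast, went from 1.33 ± 0.121 to 5.5 ± 0.77 CPM and from 22 ± 1.57 to 11.1 ± 0.401 CPM (difference -3.01, edgeR adjusted p = 1.09e-12, SE 0.20). Of the recruited genes, Itga9, an integrin gene, rose from 2.73 ± 0.449 to 19.8 ± 0.834 CPM and fell from 21.6 ± 1.96 to 6.32 ± 2.01 CPM (difference -4.62, edgeR adjusted p = 1.38e-16, SE 0.20). Kifc3, a kinesin gene, fell from 29 ± 2.33 to 4.58 ± 0.325 CPM and went from 18.8 ± 2.01 to 35.1 ± 2.05 CPM, and Nr2f2, an orphan nuclear receptor gene of mesoderm, fell from 2.93 ± 0.331 to 0.627 ± 0.325 CPM and went from 0.34 ± 0.206 to 0.916 ± 0.543 CPM. Their differences were 3.58 and 3.54, and Khdc3 was the other of the 3 recruited genes with the highest differences.

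The Hox genes, which encode homeodomain proteins that specify position along the body axis and are classic Polycomb targets, had more differences above 0 than below. Of 39 listed, 16 passed the count filter, 9 had a difference above 0, 1 below 0 and 6 were not called, at a median of 1.41. All genes tested had 7.02% above 0 and 9.79% below 0. A gene could pass through 1 group where it was high, so the count describes the genes that passed and not the family. In QKO 9 rose and 0 fell, whereas in J2KO 6 rose and 6 fell. Over all genes tested 1.64% rose and 3.61% fell in QKO, and 6.8% rose and 5.94% fell in J2KO. In the HoxC cluster 4 of 6 tested genes were lower and 0 higher in J2KO (median effect -1.30). In QKO 1 was higher and 0 lower (median effect 0.70), and 5 had a difference above 0. Hoxc12 was at 6.24, 6.46 and 5.54 CPM in J2WT, 2.41, 2.39 and 2.76 in J2KO, 7.1, 7.06 and 10.1 in TKO and 14.1, 14.9 and 12 in QKO. Its J2KO libraries lay below and its QKO libraries above all of their controls. Its difference was 2.03 (edgeR adjusted p = 5.89e-09, SE 0.21). Hoxc9, Hoxc10 and Hoxc11 had differences of 3.32, 2.25 and 2.31, and Hoxc4 of 1.20, which was 0.98 (edgeR adjusted p = 0.00202) without J2WT library 1. In HoxA, Hoxa9 rose from 0.294 ± 0.199 to 0.819 ± 0.374 CPM and from 0.693 ± 0.269 to 5.9 ± 0.22 CPM (difference 1.63). The Hoxa9 difference was 1.01 (edgeR adjusted p = 0.296) without J2WT library 2, 1.32 (edgeR adjusted p = 0.0603) without J2KO library 2 and 1.34 (edgeR adjusted p = 0.0713) without TKO library 1. Hoxb13 fell from 2.12 ± 0.495 to 0.948 ± 0.0344 CPM and rose from 0.481 ± 0.213 to 2.27 ± 0.14 CPM (difference 3.39). Hoxd13 alone had a difference called below 0, rising from 0.937 ± 0.072 to 7.37 ± 0.196 CPM and from 2.07 ± 0.0338 to 5.42 ± 0.815 CPM, a difference of -1.57. Of the tested HoxD genes Hoxd9 rose in both, by 1.13 and 1.73 on the log2 scale.

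**Figure D3:**
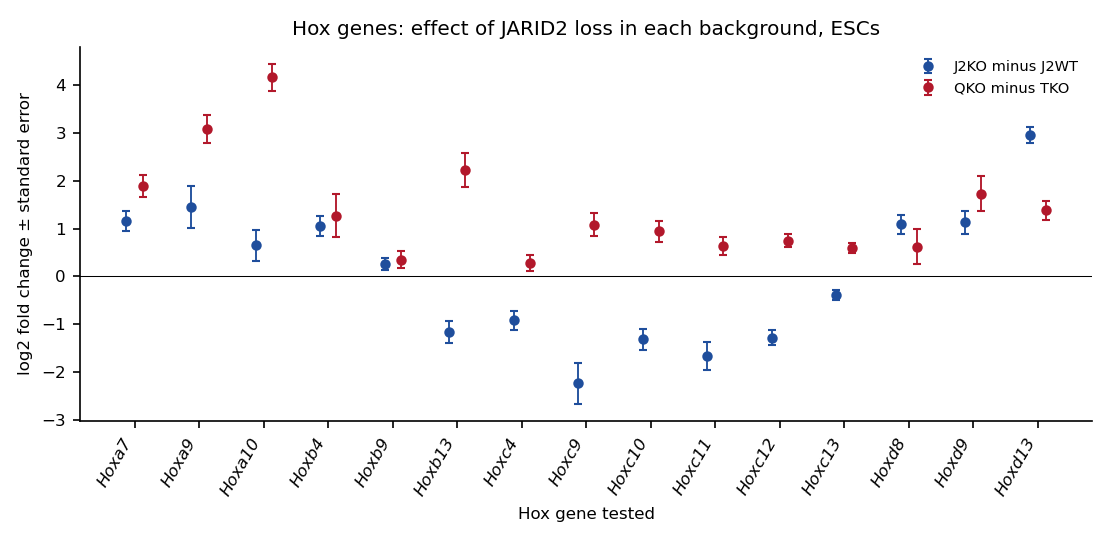
Log2 fold change ± standard error of 15 of the Hox genes tested, in J2KO over J2WT (blue) and QKO over TKO (red), ESCs, 3 libraries a group. The HoxC genes lie below 0 in J2KO and above 0 in QKO, and every QKO effect plotted lies above 0.

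Among developmental genes outside the Hox clusters more differences lay below 0 than above. Of 10 tested GATA and SOX genes, 6 had a difference below 0 and 2 above 0 (median -2.09), and of 11 other homeobox and paired genes 4 were below 0 and 1 above (median -0.93), against 7.02% above and 9.79% below 0 over all genes. Of the genes listed, 10 of 17 and 11 of 39 passed the count filter, which a gene could pass through 1 group where it was high. Gata4, a gene of endoderm and heart, rose from 0.357 ± 0.261 to 4.59 ± 0.0969 CPM in J2KO and from 5.57 ± 0.289 to 11.6 ± 1.22 CPM in QKO, so its difference of -2.60 is one of size between rises. The 5 summed markers of primitive endoderm, where Gata4 also acts, include Gata4 itself. They were at 3.05 to 3.55 CPM in J2WT, 6.98 to 7.81 in J2KO, 11.3 to 11.8 in TKO and 16.9 to 18.9 in QKO. Their part in this result was not tested. Sox11 and Sox4, genes of neural progenitors, rose in J2KO from 1.35 ± 0.0735 to 5.64 ± 1.05 CPM and from 9.35 ± 0.179 to 22.8 ± 1.02 CPM and went from 55.6 ± 2.97 to 47.8 ± 5.65 CPM and from 29.7 ± 1.5 to 16.4 ± 1.28 CPM in QKO. Sox1, a gene of the early neural plate, fell in QKO from 28.4 ± 1.59 to 9.63 ± 0.486 CPM and went from 14.7 ± 0.932 to 20.9 ± 1.03 CPM in J2KO (difference -2.05). En2, a homeobox gene of the midbrain, rose from 5.67 ± 0.387 to 12.6 ± 1.54 CPM in J2KO and went from 10.2 ± 0.249 to 5.19 ± 0.555 CPM in QKO (difference -2.10). Gata3, a gene of trophoblast and T cells, was at 7.28, 8.25 and 6.29 CPM in J2WT, 1.94, 2.51 and 1.38 in J2KO, 3, 2.35 and 2.48 in TKO and 7.73, 7.69 and 8.6 in QKO, lower in J2KO and higher in QKO, a difference of 3.52 (edgeR adjusted p = 6.57e-12, SE 0.26). Meis2, another partner of Hox proteins, rose from 9 ± 2.05 to 61.2 ± 2.45 CPM in QKO and went from 56.4 ± 3.32 to 80 ± 3.22 CPM in J2KO (difference 2.27).

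Several targets of Wnt signalling and genes of the primitive streak fell in both backgrounds. Of 12 tested Wnt targets, 6 fell in J2KO and 5 in QKO, 4 of them in both, and 5 had a difference above 0 and 0 below 0, or 2 and 1 with all libraries thinned to 1 depth. These counts were 3 and 1 without QKO library 3, and 1 lay below 0 without J2KO library 2, J2WT library 1 or TKO library 2. Of 6 tested genes of primitive streak and mesendoderm, 5 fell in J2KO and 4 in QKO, with 4 differences above 0 and 1 below. The count filter passed 6 of 16 listed streak genes and 12 of 14 listed Wnt targets. A gene could pass it through 1 group where it was high. Cdx1, Cdx2 and T are counted in both lists. The Wnt target list's median effect was -1.49 in J2KO and -0.74 in QKO, against 0.00 and 0.00 over all genes. Among all genes tested 5.94% fell in J2KO and 3.61% in QKO, and 7.02% had a difference above 0 and 9.79% below 0. Cdx1, a caudal-type homeobox gene, was at 148, 160 and 161 CPM in J2WT, 31.5, 33.1 and 36.3 in J2KO, 144, 122 and 121 in TKO and 78.4, 75.5 and 88.6 in QKO, and its difference was 1.56 (edgeR adjusted p = 7.83e-14, SE 0.09). Cdx2, the caudal gene of trophectoderm and hindgut, fell from 5.34 ± 1.02 to 0.303 ± 0.15 CPM and from 1.58 ± 0.031 to 0.644 ± 0.245 CPM, and T, the Brachyury gene of the streak, from 3.19 ± 0.0585 to 0.497 ± 0.132 CPM and from 4.08 ± 0.806 to 1.31 ± 0.148 CPM. The difference for T, 1.04, was at the limits of the call and was 0.84 (edgeR adjusted p = 0.0907) without J2KO library 1, 0.99 (edgeR adjusted p = 0.0573) without QKO library 3 and 0.90 (edgeR adjusted p = 0.0523) without TKO library 2. Apcdd1, a Wnt inhibitor gene, fell from 41.7 ± 3.38 to 7.6 ± 0.863 CPM in J2KO and went from 17.5 ± 1.39 to 18.4 ± 2.15 CPM in QKO (difference 2.54). Axin2, the common readout of Wnt signalling, went from 93.2 ± 2.86 to 55.9 ± 0.53 CPM and from 27.8 ± 2.33 to 15.9 ± 0.193 CPM, effects of -0.75 and -0.81 that differed by -0.06 (interval -0.25 to 0.13). Eomes, a T-box gene of streak and trophoblast, had a difference below 0, going from 6.97 ± 0.0616 to 6.33 ± 0.568 CPM in J2KO and falling from 39.2 ± 0.77 to 15.1 ± 0.815 CPM in QKO (difference -1.22).

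Of 11 tested trophoblast genes, 6 had a difference above 0 and 3 below 0, against 7.02% and 9.79% of all genes. The same shares stand beside the BMP, Id and ERK counts that follow. These 11 are of 17 listed, and a gene could pass the count filter through 1 group where it was high. The 4 summed marker genes of trophoblast were at 10.6 to 11.8 CPM in J2WT, 4.6 to 6.06 in J2KO, 4.85 to 7 in TKO and 10 to 11.3 in QKO. Gata3, which is 1 of these 4 markers and also 1 of the 6 genes above 0, made up most of the sum in J2WT and QKO. The part of the markers in these differences was not tested. Krt8, a keratin gene of simple epithelia, fell from 40.2 ± 0.177 to 5.55 ± 0.248 CPM in J2KO and went from 11.1 ± 2.13 to 7.04 ± 0.745 CPM in QKO (log2 fold changes -2.86 and -0.66), and Tfap2c, a trophoblast and germline factor gene, fell from 30.2 ± 0.3 to 13.1 ± 1.17 CPM and went from 20.5 ± 2.2 to 22.7 ± 2 CPM (difference 1.36). Of 12 genes of BMP signalling and the Id family of inhibitory helix-loop-helix proteins, 4 were above 0 and 2 below. Id1 fell from 13.2 ± 1.38 to 2.55 ± 0.199 CPM in J2KO and went from 14.3 ± 0.25 to 11.7 ± 1.08 CPM in QKO, and Id2 fell from 10.5 ± 0.316 to 1.72 ± 0.277 CPM and went from 3.9 ± 0.595 to 6.83 ± 0.792 CPM. Bmp4, a ligand gene, went from 31.6 ± 0.599 to 25.9 ± 1.71 CPM and fell from 8.16 ± 0.393 to 3 ± 0.307 CPM. The differences were 2.08 for Id1, 3.44 for Id2 and -1.14 for Bmp4. Of 13 feedback genes of ERK signalling, Etv1, Etv4 and Phlda1 had differences above 0, of 2.67, 3.57 and 1.89, and Dusp4 one of -1.39.

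Of 15 tested genes of naive pluripotency, Dppa3 alone was called, although the list's median of -0.46 lay below that of all genes. Nanog went from 784 ± 16.7 to 1026 ± 19.2 CPM and from 1508 ± 90.7 to 1350 ± 16.8 CPM, and Esrrb, an orphan receptor gene that maintains naive cells, from 1029 ± 24.4 to 1278 ± 9.9 CPM and from 1075 ± 16.8 to 914 ± 10.2 CPM. Of 10 general pluripotency genes 0 were called by edgeR (9 at an unadjusted p under 0.05 and 0 called by DESeq2). Of 15 formative and primed genes, 5 had a difference below 0 and 3 above 0, against 9.79% and 7.02% of all genes. The 4 summed markers of EpiLCs, of which Dnmt3b made up most, were at 252 to 263 CPM in J2WT, 93 to 97 in J2KO, 99.9 to 113 in TKO and 156 to 173 in QKO, and their part in these differences was not tested. Lefty1 and Lefty2, genes for inhibitors of Nodal, rose in J2KO from 6.92 ± 0.802 to 23.9 ± 1.25 CPM and from 72.1 ± 1.55 to 166 ± 5.58 CPM and in QKO Lefty1 fell from 51.1 ± 3.89 to 22.5 ± 0.953 CPM and Lefty2 went from 370 ± 13.7 to 198 ± 3.82 CPM. Sall2, a zinc finger gene, rose from 2.18 ± 0.228 to 12.1 ± 0.804 CPM and went from 9.85 ± 1.48 to 6.25 ± 0.662 CPM (difference -3.11). Dnmt3b (ENSMUSG00000027478, GRCm38 chromosome 2, bases 153649450 to 153687730), a de novo DNA methyltransferase, was at 260, 253 and 249 CPM in J2WT, 86.4, 84.4 and 85.9 in J2KO, 88.6, 83.1 and 77.9 in TKO and 128, 123 and 138 in QKO, lower in every J2KO library and higher in every QKO library than in its control, with a difference of 2.22 (edgeR adjusted p = 1.06e-19, SE 0.07). Tet2 and Tet3, which oxidise methylcytosine, had differences of -1.69 and -1.82, while Dnmt1 and Tet1 were at -0.09 and -0.40.

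Imprinted genes, expressed from 1 parental allele, were called in 5 cases above 0 and 10 below 0 of 26 tested (median -0.65, and -0.65 with Rtl1, at 0 counts in 1 group, set at the floor of 3 counts). The shares over all genes were 7.02% above 0 and 9.79% below 0. Peg10 (ENSMUSG00000092035, GRCm38 chromosome 6, bases 4747306 to 4760517), a retrotransposon-derived gene of the placenta, was at 319, 295 and 290 CPM in J2WT, 45.4, 46.9 and 46.6 in J2KO, 74.5, 76.1 and 69.5 in TKO and 104, 103 and 114 in QKO, with a difference of 3.26 (edgeR adjusted p = 2.2e-22, SE 0.07). Its neighbour Sgce, a sarcoglycan gene, fell from 6.86 ± 1.42 to 1.87 ± 0.058 CPM and rose from 1.14 ± 0.0384 to 3.07 ± 0.901 CPM. Mest, a hydrolase gene, was at 49.6, 48.7 and 45.7 CPM in J2WT, 89, 90 and 88.9 in J2KO, 1.1, 0.642 and 0.826 in TKO and 21, 19.8 and 22.2 in QKO, so that TKO stood far below the other groups, and PclWT was at 44.4 CPM. Its difference was 3.71 (edgeR adjusted p = 3.07e-15, SE 0.18). Meg3 and Rian, long noncoding RNAs of the Dlk1-Dio3 region, went from 443 ± 29.7 to 490 ± 3.09 CPM and from 466 ± 18.9 to 662 ± 18.6 CPM in J2KO but lay at 1.07 ± 0.248 and 1.48 ± 0.0755 CPM in TKO and 0.115 ± 0.2 and 0.307 ± 0.0489 in QKO. Their differences of -3.23 and -2.72 rest on few counts in TKO and QKO, and the Meg3 difference was -6.98 (edgeR adjusted p = 7.73e-06) without QKO library 1. PclWT was also low, at 1.77 and 3.6 CPM. Phlda2, a placental growth regulator gene, rose from 2.98 ± 0.163 to 7.97 ± 1.24 CPM and fell from 22.6 ± 1.61 to 5.62 ± 1.29 CPM (difference -3.42), and H19, a noncoding RNA, fell in both, with log2 fold changes of -3.68 and -1.85.

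Genes of the integrated stress response and of glycolysis had more differences below 0 than above, as had all genes tested, 9.79% of which were below 0 and 7.02% above. Those shares stand beside each count here. Of 14 tested genes of the integrated stress response, 6 had a difference below 0 and 0 above 0 (median -0.86). Vldlr, a lipoprotein receptor gene, rose from 5.04 ± 0.421 to 17.3 ± 0.534 CPM and fell from 8.91 ± 0.881 to 1.38 ± 0.201 CPM (difference -4.43, edgeR adjusted p = 1.47e-15, SE 0.21). Chac1, which degrades glutathione, went from 32.2 ± 3.44 to 49.3 ± 2.15 CPM and fell from 39.8 ± 3.13 to 13.2 ± 2.09 CPM, and Trib3, a pseudokinase gene induced by ATF4, went from 63.6 ± 2.88 to 104 ± 3.02 CPM and from 63.3 ± 0.515 to 36.3 ± 4.48 CPM, with differences of -2.20 and -1.50. Of 20 genes of glycolysis and hypoxia, 5 were below 0 and 1 above, including Bnip3, a mitophagy receptor gene, at -2.03 and Slc2a3, a glucose transporter gene, at -1.06. Of 15 p53 targets 3 were below 0 and 0 above. Of 18 germline genes Brdt, Stk31 and Tex101 were above 0, at 2.42, 1.74 and 2.30, and Tex101 was 1.17 (edgeR adjusted p = 0.337) without QKO library 3.

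Of the remaining lists, basement membrane had 1 above and 2 below 0 of 13 tested, epithelial and mesenchymal had 1 above and 5 below 0 of 15 tested, fibroblasts and feeders had 1 above and 2 below 0 of 6 tested, neuroectoderm had 0 above and 4 below 0 of 6 tested. The others were Notch with 0 and 2 of 9, T-box with 3 and 1 of 8, primitive endoderm with 2 and 2 of 13, 2-cell-like with 0 and 1 of 2, genes the study names with 1 and 2 of 8, DNA methylation with 1 and 2 of 11. Each count stands beside the shares over all genes of 7.02% and 9.79%. The count filter passed 6 of 15 listed genes of neuroectoderm, 6 of 15 of fibroblasts and feeders, 8 of 15 T-box genes and 2 of 11 2-cell-like genes. A gene could pass it through 1 group where it was high. The lists share genes, among them En2, Sox1 and Sox11 of neuroectoderm, so their counts are not independent. The 3 summed markers of 2-cell-like cells were at 0.673 to 0.934 CPM in J2WT, 0.394 to 0.763 in J2KO, 8.99 to 9.7 in TKO and 2.77 to 3.66 in QKO, and their part in that list's count was not tested.

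**Figure D4:**
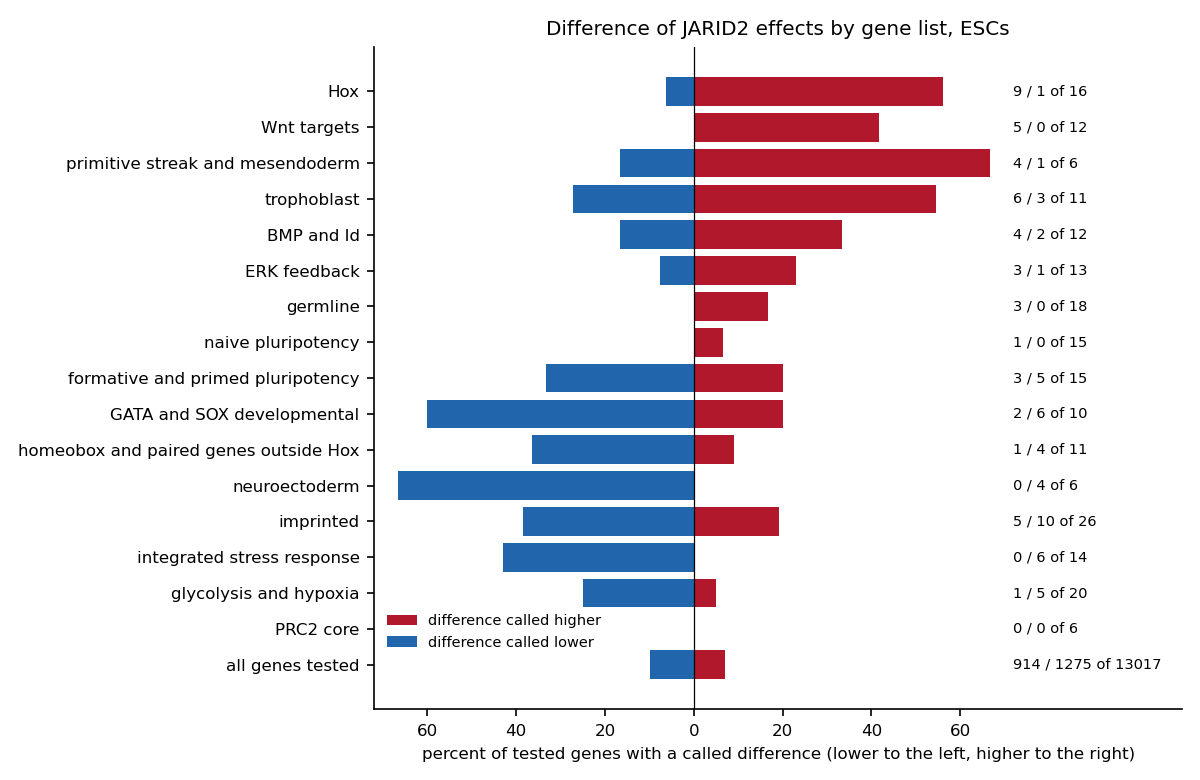
Share of the tested genes of each list with a difference called above 0 (red, to the right) or below 0 (blue, to the left), in percent, with the counts as higher / lower of tested. Hox genes, Wnt targets and genes of the primitive streak and mesendoderm extend mainly to the right, neuroectoderm and GATA and SOX genes mainly to the left, and the bottom bar gives all genes tested, 7.02% and 9.79%. Some lists share genes, so their bars are not independent. Cdx1, Cdx2 and T are both Wnt targets and streak genes, and Sox1 and Sox11 are in neuroectoderm and in GATA and SOX genes.

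The median J2KO effect over 1072 tested genes of chromosome 11 was 0.45, against -0.09 to 0.19 for the other autosomes, while the median QKO effect there was 0.02 and the median difference -0.41. In single libraries, the median log2 level of chromosome 11 genes over the J2WT mean was -0.01, 0.01 and 0.00 in J2WT, 0.45, 0.44 and 0.46 in J2KO, -0.05, -0.08 and -0.08 in TKO, -0.03, -0.02 and -0.03 in QKO and 0.37, 0.40 and 0.39 in PclWT. All 3 J2KO libraries thus lay apart from J2WT by nearly the same amount, and PclWT lay near them. Of chromosome 11 genes 14.2% had a difference called below 0 and 3.17% above 0, and on the X chromosome it was 18.6% and 6.26%. Chromosome 14 had a median J2KO effect of 0.19 and 20.6% of its genes called below 0. Chromosome 6 had the lowest median QKO effect of the autosomes, -0.15, with 9.92% of its 605 genes lower in QKO, against 3.61% over all genes, and 13.4% of its differences called below 0. Of the genes named, Axin2, Cbx8, Etv4, Grb10, Hoxb13, Ikzf1, Meis1, Stc2 and Suz12 lie on chromosome 11, Bmp4, Gata4, Otx2 and Sall2 on chromosome 14, Ccnd2, Dppa3, Ezh2, Hoxa10, Hoxa9, Mest, Nanog, Peg10, Phc1, Pianp, Rerg, Sgce, Slc2a3, Stk31 and Tet3 on chromosome 6 and Armcx3, Rhox5, Scml2, Sox3 and Usp26 on the X chromosome. Gene copy number was not measured. With each chromosome's median effect subtracted, an alternative chosen after seeing the data, the difference went from -3.70 to -3.29 for Grb10, from 3.57 to 3.97 for Etv4 and from 3.19 to 3.41 for Otx2. It went to 0.13 for Meis1 and 0.35 for Axin2, and Bmp4 at -0.92, Slc2a3 at -0.96, Pcgf5 at 0.98 and T at 1.00 were no longer past the fold limit. The 4 Y-linked genes listed summed to 386 to 400 CPM in J2WT, 195 to 204 in J2KO, 224 to 230 in PclWT, 2.57 to 4.03 in TKO and 1.83 to 2.42 in QKO. Without the genes of chromosomes 11, X and Y, 852 differences above 0 and 1040 below 0 were called, and with each chromosome's median effect subtracted 922 and 1189.

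**Figure D5:**
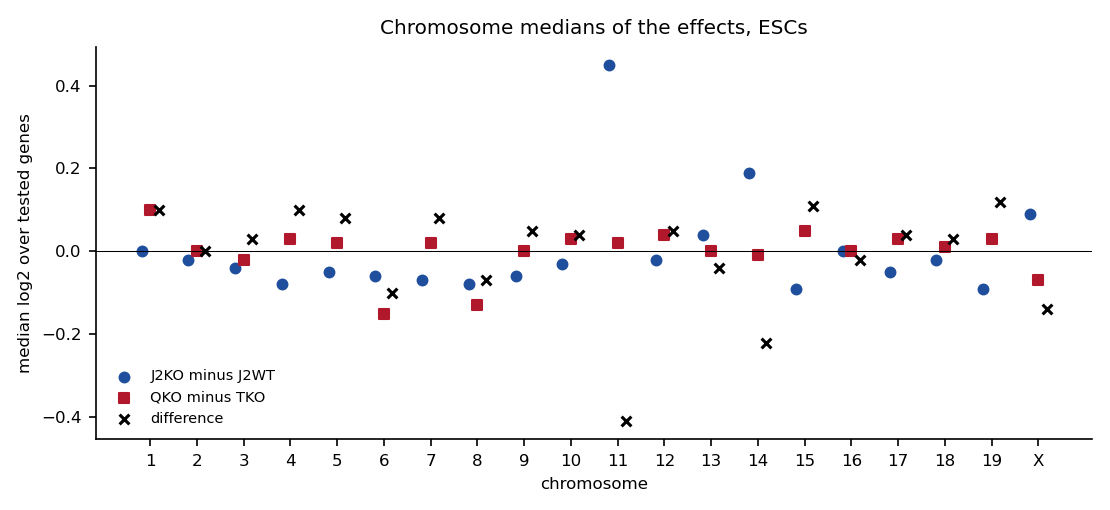
Median log2 effect over the tested genes of each autosome and the X chromosome for J2KO over J2WT (blue circles), QKO over TKO (red squares) and their difference (crosses). Chromosome 11 lies at 0.45 in J2KO and 0.02 in QKO, outside the range of the other autosomes in J2KO.

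The same contrast in the 12 EpiLC libraries of these lines, made from ESCs by 2 days in activin A and bFGF, gave calls that overlapped in part with those in ESCs. There 413 genes had a difference above 0 and 1162 below 0, 3.05% and 8.58% of those tested. Of the ESC differences above 0, 756 were tested in EpiLCs and 160 were called the same way, 21.2% of them and 46.9% of the 341 EpiLC calls tested in ESCs. Of those below 0, 453 of 1194 were, 37.9% of them and 54.8% of the 826 EpiLC calls. The lines are the same at both stages, so differences between lines or clones are shared. A test of the stage difference itself called 797 genes with a higher difference in ESCs and 751 with a lower one, 5.9% and 5.56%. Dppa3 had a difference of 3.67 in ESCs and -3.06 in EpiLCs, and Cdx2 of 2.83 and -2.62. The stage difference itself was 6.74 (edgeR adjusted p = 9.03e-11, SE 0.64) for Dppa3 and 5.46 for Cdx2. For Dnmt3b the differences were 2.22 and -1.22, for Nanog -0.54 and 1.19 and for Tbx3, a T-box gene of naive cells, -0.36 and 1.35. Tfap2a and Mest, at 3.30 and 3.71 in ESCs, were at 2.93 and 4.22 in EpiLCs.

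The difference of effects depends on the log2 scale, on which a gene that is near 0 in a control counts by its ratio. On the scale of mean CPM, 902 of the 914 differences above 0 and 1258 of the 1275 below 0 had the same sign, and 29 had the other.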

How the data were processed

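Poly(A) RNA of mouse ESCs and EpiLCs was sequenced. The authors aligned reads with STAR to GRCm38 with Ensembl gene models, and the deposited files hold unnormalized counts of reads per gene, of which the column counted without strand was used. The submitters' processing notes also name FastQC, DESeq2 and deepTools. Lines of unassigned reads (24.49 to 27.08% per ESC library) were left out. Groups came from the sample titles. The 4 groups of 3 ESC libraries were fitted together in edgeR 4.0.16 (R 4.3.3) by the quasi-likelihood test with TMM scaling, on genes whose normalized counts averaged 15 or more. Contrasts gave the effect in each pair and their difference. A gene was called at a Benjamini-Hochberg adjusted p under 0.05 and a log2 value past 1 in size. CPM values with SDs were computed from the counts. Intervals of count ratios are exact at 95% and cover counting error only. Genes were assigned to a PRC2 site within 2000 bp of any annotated transcript start, from the site lists published with the study (398 recruited, 78 displaced and 1998 maintained sites read). A gene near sites of more than 1 class was assigned to none. Named genes are the 10 with the highest and the 10 with the lowest called difference, the 3 with the largest effects in each direction of each pattern (opposite, J2KO alone, QKO alone, same) and at recruited or displaced sites, and members of the gene lists. Predicted genes and genes under 1 CPM in all 4 groups were left out of the first. Rank did not set which list members are named, and their choice followed the values. The members, gene lists and tests were chosen with earlier results of these data known. On simulated counts for the ESC difference, over 12886 genes, 95% of genes changed by 1.5 on the log2 scale and 100% of those changed by 3 were called, with 1 unchanged gene called. The simulated counts carried the spread between libraries of a group and no differences between lines or clones. Alternatives were DESeq2 1.42.0, other scaling, filters, thinning, a replicate block, PclWT added, each library left out and, added after the data were seen, corrections for chromosomes. Of the 36 libraries, 27 were read. Some members of the gene lists are not reported here by name.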

Additional observations from a re-analysis of the deposited data

Results flagged for a closer look

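The difference of effects between the backgrounds was itself tested, and 914 genes passed above 0 and 1275 below 0. Between ESCs and EpiLCs the difference changed in 797 genes toward higher values in ESCs and in 751 toward lower values. Predicted genes and genes under 1 CPM in all 4 groups were left out of the rankings that follow. The largest called differences above 0 in ESCs, on the log2 scale, were 6.90 for Slc28a3, 6.33 for Anxa3, 5.71 for Tmprss5, 5.23 for Ly6a, 5.23 for Khdc3, 5.22 for Rhox5, 5.02 for Steap3, 4.86 for Cd3d, 4.83 for Rcsd1 and 4.73 for Cd3g. The lowest were -9.64 for Ikzf1, -7.65 for Ccnd2, -6.53 for Armcx3, -6.50 for Pdha2, -6.41 for Gap43, -6.15 for Calca, -6.06 for Usp26, -6.06 for Igsf10, -5.89 for Evc and -5.75 for Crmp1. The fitted values for Ikzf1 and Pdha2, each with a group at 0 counts, depend on the prior count and bound nothing. Between the stages, the difference in ESCs less that in EpiLCs was 3.46 for Dnmt3b, 6.74 for Dppa3, 5.46 for Cdx2, -1.70 for Tbx3 and -1.71 for Nanog.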

How the results depend on the processing

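The second pair held fewer counts. With every library thinned to the smallest total 712 genes were higher and 650 lower in J2KO and 179 higher and 385 lower in QKO, with 813 differences above 0 and 1095 below 0. Without a fold minimum 3909 and 4084 passed. Without the count filter 1546 genes were higher and 1536 lower in J2KO, 353 were higher in QKO, and 1179 differences were called with the J2KO effect alone and 186 with the QKO effect alone. The other counts over all genes or by pattern stayed within 1.5 times the reported counts under the other settings, DESeq2 giving 867 and 1248 differences. Leaving out 1 library gave 898 to 964 differences above 0 and 1227 to 1301 below 0, 859 to 904 genes higher and 733 to 801 lower in J2KO, and 199 to 225 higher and 455 to 492 lower in QKO. It gave 141 to 156 genes called in opposite and 137 to 151 in the same directions, 675 to 761 differences with the J2KO effect alone and 104 to 122 with the QKO effect alone. In EpiLCs it gave 395 to 425 above 0 and 1115 to 1173 below 0, and for the stage difference 742 to 823 and 732 to 787.

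The replicate numbers did not pair the libraries: deviations of same-numbered ESC libraries from their group means correlated at -0.059 to 0.061. With a replicate block 913 differences lay above 0 and 1273 below 0, with 884 and 773 in J2KO, 209 and 466 in QKO, 418 and 1145 in EpiLCs and 796 and 758 for the stage difference. In the gene lists, 0 Wnt targets were below 0 as reported and 1 was so with the block, without the count filter, thinned, or without J2KO library 2, J2WT library 1, TKO library 2 or QKO library 3. The Wnt targets above 0 went from 5 to 2 thinned and to 3 without QKO library 3, and GATA and SOX genes above 0 from 2 to 1 thinned.

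Differences near 0 changed sign. Plaur ranged from -0.32 to 0.24 over the single libraries left out, and was at 0.00 by DESeq2, -0.03 thinned and -0.06 with chromosome medians subtracted. Sp5 ranged from -0.27 to 0.50 over the single libraries left out, and Axin2 from -0.09 to 0.01. Spry4 was at -0.06 thinned. With chromosome medians subtracted, an alternative chosen after seeing the data, Axin2 was at 0.35, Meis1 at 0.13, Suz12 at 0.26 and Jarid2 at 0.01, while Bmp4 (-0.92), Pcgf5 (0.98), Slc2a3 (-0.96) and T (1.00) were no longer past the fold limit. T was not called by DESeq2, thinned or without the count filter, and Hoxa9 not when thinned. The cause was not tested.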
